A study of Homo sapiens with 9 samples.

Results

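The 10 genes described here detect double-stranded RNA or stray DNA inside human cells, pass that signal on, or edit the RNA that would set it off. They are RIGI, IFIH1, DHX58, EIF2AK2, ADAR, TLR3, CGAS, STING1, MAVS and IRF3. They were chosen by symbol, were matched through GENCODE to 10 of the 60649 gene identifiers of a raw count table, and all 10 passed the filter on low counts that left 19674 genes for testing. The libraries came from OVCAR5, an established human ovarian cancer cell line of epithelial type, grown in RPMI-1640 medium. All groups were stable lines made with lentivirus and puromycin, and no source used here says that any of them was a single clone. There were 3 libraries labelled NC, 3 labelled SM2 and 3 labelled SM4, where SM2 and SM4 are given as knockdowns of METTL3, the catalytic subunit of the complex that writes N6-methyladenosine (m6A) on RNA, and NC is given as the control. The series calls the NC cells parental whereas a hairpin is given as the control in the methods, and one label field gives the 3 libraries labelled SM4 other OVCAR names although their cell line field reads OVCAR5. Which hairpin belongs to SM2 and which to SM4 is not given in the labels.

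RIG-I (RIGI) and MDA5 (IFIH1) are cytosolic helicases that bind double-stranded RNA and signal through MAVS, an adaptor on the mitochondrial outer membrane. LGP2 (DHX58) is a related helicase without the signalling domains. TLR3 detects double-stranded RNA in endosomes, while cGAS (CGAS) binds cytosolic DNA and makes a cyclic dinucleotide that activates STING (STING1). The adaptor routes lead to phosphorylation of IRF3, which switches on type I and type III interferon genes and some antiviral genes directly, and secreted interferon then raises many antiviral genes, several of the sensors among them, through JAK-STAT signalling. PKR (EIF2AK2) is a kinase that stops translation once it binds double-stranded RNA, and ADAR changes adenosine to inosine in double-stranded RNA so that the cell's own transcripts are less readily sensed. Loss of m6A has been linked to the build-up of endogenous double-stranded RNA.

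The libraries held 44103272 to 63693728 counts. METTL3 itself went against the labels. It stood at 36.3, 34.4 and 36.7 CPM (counts scaled to a common library size) in the libraries labelled NC, at 37.1, 39.8 and 40.01 CPM in those labelled SM2 and at 60.6, 57.5 and 62.4 CPM in those labelled SM4. The highest transcript level was therefore in the libraries labelled SM4 (log2 fold change 0.75 against NC, adjusted p 2.21e-09). The study reports METTL3 as lower with both METTL3 hairpins than with the hairpin control. Here it was lower in the libraries labelled NC and SM2 than in those labelled SM4. This is the order that an exchange of the labels NC and SM4 would give, and the labels alone do not settle it. The study's supplement lists log2 fold changes of each METTL3 hairpin against the hairpin control. For METTL3, MX1, PECAM1 and LYZ, the first hairpin gives about the size of SM4 against NC here, with the opposite sign. The second hairpin gives about the size of SM4 against SM2, also with the opposite sign. These values match SM4 as the hairpin control and NC and SM2 as the knockdowns. Were the labels NC and SM4 exchanged, SM4 against NC and SM4 against SM2 would both compare the control with a knockdown. Every direction given here for SM4 would then be that of the control, and SM2 against NC would compare the knockdowns with each other. All directions below are those of the groups as labelled. All CPM values are normalized with TMM, the trimmed mean scaling of edgeR, and all adjusted p-values come from the quasi-likelihood test of edgeR, with Benjamini-Hochberg correction across all 19674 tested. A gene is called at an adjusted p below 0.05. No source says that replicates were separate cultures, so p-values measure the spread between these libraries, which may be technical. Of the replicates, SM2 replicate 3 stood apart, with a chi-square of 12.7 and 15.2 per degree of freedom against the other libraries of its group where the remaining pairs gave 4.01 to 5.77. Epithelial markers (EPCAM, CDH1, KRT8, KRT18 and KRT19) summed to between 9910 and 11787 CPM per library, and the 5 immune cell markers summed to between 40.9 and 45.0 CPM in NC, 58.95 and 62.7 CPM in SM2 and 41.0 and 44.3 CPM in SM4. PTPRC and CD3E had at most 4 counts in any library, and the sum came from LYZ and CD14, whose log2 fold changes in SM4 against NC were -0.17 for LYZ (adjusted p 0.0376) and 0.83 for CD14 (adjusted p 1.46e-06). The 4 fibroblast markers summed to between 21.2 and 26.3 CPM, nearly all from COL1A1. The 3 endothelial markers summed to between 5.42 and 5.85 CPM in NC, 7.79 and 8.9 CPM in SM2 and 13.1 and 15.2 CPM in SM4, nearly all from PECAM1, which exceeded NC in SM4 by 1.32 (adjusted p 2.29e-09), while VWF had at most 15 counts and CDH5 at most 10. The part of these markers in the results below was not tested. Of the Müllerian markers, PAX8 and MUC16 were counted in every library while WT1 had at most 10 counts.

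Promoter sequence was available for 6 of the 10 genes in RefSeq windows that run from 250 bases before to 50 bases after the start (assembly GRCh38.p14). Those genes were RIGI, IFIH1, EIF2AK2, ADAR, TLR3 and MAVS. The windows were searched on both strands for GAAANNGAAA, the core of the interferon-stimulated response element (ISRE) that IRF family factors bind. Of all 35116 windows, 3.57% held it. It was found in IFIH1, EIF2AK2 and TLR3, and these stretches are shown because they place the element next to the start of genes whose levels are compared below. Each reads 5′ to 3′ on the strand of its gene, with the matches in capitals and with bases counted so that 1 is the start base and -1 the base before it. The IFIH1 stretch (chr2:162318696-162318883, minus strand, bases -199 to -12) held 3 matches, of which 2 overlap each other. The EIF2AK2 stretch (chr2:37156977-37157026, minus strand, bases -46 to 4) and the TLR3 stretch (chr4:186069112-186069161, plus strand, bases -44 to 6) held 1 each, both across the start.
IFIH1: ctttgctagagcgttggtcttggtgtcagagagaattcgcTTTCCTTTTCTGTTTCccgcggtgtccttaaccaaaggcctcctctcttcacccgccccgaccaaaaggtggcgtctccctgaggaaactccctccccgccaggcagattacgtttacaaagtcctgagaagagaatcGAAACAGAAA
EIF2AK2: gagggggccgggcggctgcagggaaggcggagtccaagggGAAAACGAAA
TLR3: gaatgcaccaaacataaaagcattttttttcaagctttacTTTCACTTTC

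The letters GAAANNGAAA were not in the windows of RIGI and MAVS or in any of the 3 windows of ADAR. A second search, for TTCNNNGAA, the core of the interferon-gamma activated site (GAS), found it in 7.66% of all windows and, among these genes, only in TLR3 (at bases -178 to -170 and -50 to -42). A match is a run of letters and not a measured binding site.

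Seen together, the helicase genes IFIH1 and DHX58, the PKR gene and ADAR were highest in the libraries labelled SM4, the DNA-sensing pair CGAS and STING1 separated NC from both other groups in opposite directions, and RIGI, TLR3 and IRF3 were called in no comparison. In SM4 against NC, 7 of the 10 genes were called, 6 higher (DHX58, EIF2AK2, STING1, MAVS, IFIH1 and ADAR) and 1 lower (CGAS), where 21.2% of all genes tested were called, 11% higher and 10.2% lower. In SM2 against NC, 2 of the 10 were called, STING1 higher and CGAS lower, beside 22.3% of all genes, 12% higher and 10.3% lower. In SM4 against SM2, 4 of the 10 were called and all 4 were higher in SM4 (DHX58, EIF2AK2, IFIH1 and ADAR), beside 12.8% of all genes, 6.04% higher and 6.76% lower. The median log2 fold change of the 10 was 0.21 in SM4 against NC, -0.02 in SM2 against NC and 0.17 in SM4 against SM2, while the median over all genes tested lay within 0.0037 of 0 in each. The libraries did not overlap between groups for 7 of the 10 genes in SM4 against NC (38.4% of all genes), for 2 in SM2 against NC (35.2%) and for 5 in SM4 against SM2 (28.3%), the fifth being RIGI. The comparisons with NC share its libraries, so they are not independent of each other. Without NC replicate 2, both CGAS calls were lost, as were those of IFIH1 and MAVS in SM4 against NC.

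**Figure D1:**
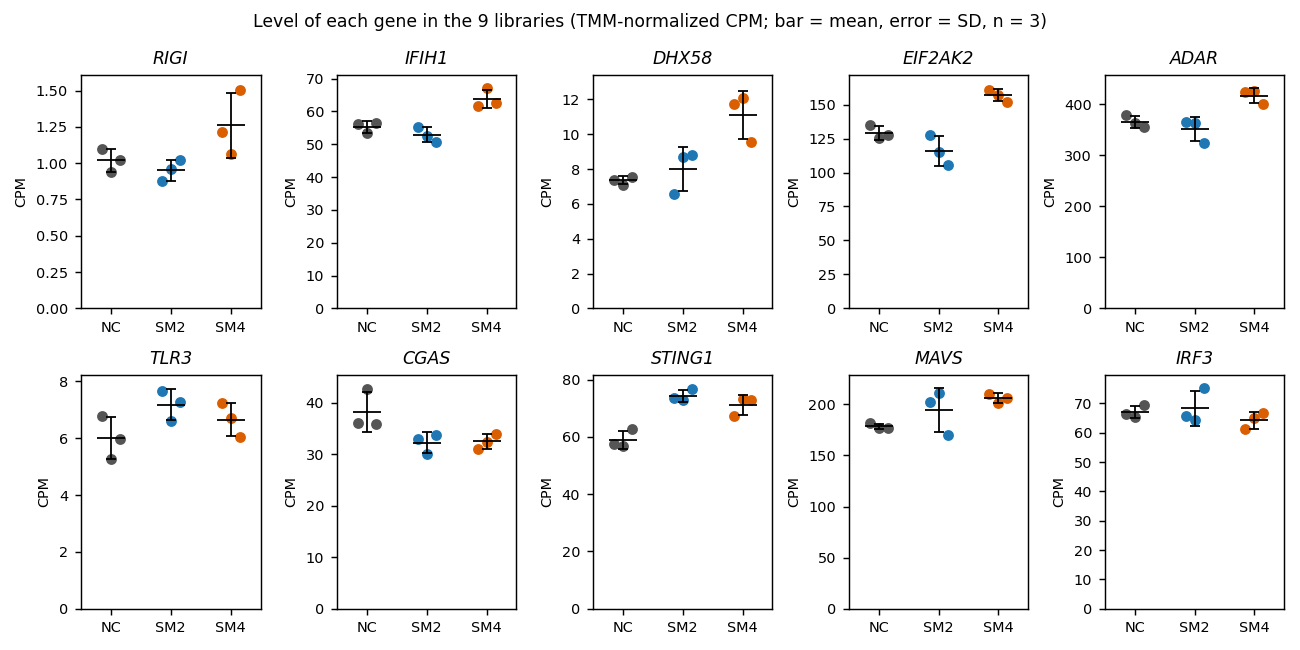
TMM-normalized CPM of each of the 10 genes in the 9 libraries, with libraries labelled NC, SM2 and SM4 along the x axis (points are libraries, bars are means, error bars are SD, n = 3). In IFIH1, DHX58, EIF2AK2 and ADAR the 3 libraries labelled SM4 sit above all 6 others, in STING1 the 3 labelled NC sit below all 6 others, and in CGAS they sit above all 6 others.

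IFIH1 (ENSG00000115267.9, chromosome 2, 162267074 to 162318684, GRCh38), the gene of the MDA5 sensor of long double-stranded RNA, was at 56.05, 53.3 and 56.6 CPM in the libraries labelled NC. It was at 55.4, 52.6 and 50.7 CPM in those labelled SM2 and at 61.8, 67.0 and 62.5 CPM in those labelled SM4. Every library labelled SM4 was above the 6 others, while NC and SM2 overlapped. SM4 exceeded NC by 15.3% (log2 fold change 0.21, SE 0.0519, adjusted p 0.00646) and SM2 by 20.6% (log2 fold change 0.27, SE 0.0521, adjusted p 0.00118). The call against NC was lost without NC replicate 2 (0.18, adjusted p 0.0556) or without SM4 replicate 2 (0.17, adjusted p 0.0585), and the call against SM2 was kept in all 17 alternatives. SM2 differed from NC by -0.06 on the log2 scale (95% interval -0.17 to 0.04, adjusted p 0.435).

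DHX58 (ENSG00000108771.13, chromosome 17, 42101404 to 42112714), which encodes LGP2, the helicase that tunes MDA5 and RIG-I, showed the largest difference of the 10 genes. Its levels were 7.39, 7.10 and 7.55 CPM in the libraries labelled NC and 6.57, 8.72 and 8.79 CPM in those labelled SM2. In those labelled SM4 they were 11.7, 12.1 and 9.54 CPM, all above the 6 others. The increase in SM4 was 51.5% against NC (log2 fold change 0.60, SE 0.113, adjusted p 0.000498) and 38.5% against SM2 (log2 fold change 0.47, SE 0.112, adjusted p 0.00713), and both calls were kept in all 17 alternatives. Within SM2 the first library lay below every library labelled NC and the other two above, and the difference from NC was not called (0.13, 95% interval -0.11 to 0.37, adjusted p 0.485).

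RIGI (ENSG00000107201.11, chromosome 9, 32455302 to 32526208) can be read only in part from these counts. It had 48, 51 and 60 counts in the libraries labelled NC, 40, 46 and 54 in those labelled SM2 and 74, 67 and 77 in those labelled SM4. In CPM that was 1.10, 0.938 and 1.03 for NC, 0.876, 0.957 and 1.02 for SM2, and 1.22, 1.06 and 1.5 for SM4. In GENCODE v44, 96.6% of the exon bases of its canonical transcript also lie in exons of ENSG00000288684, a readthrough gene on the same strand, and that gene had 0 counts in every library. Among protein-coding genes with at least 90% of their canonical exon bases shared on the same strand, 659 of 757 (87.1%) were below 1 CPM, against 37.8% of the 17152 genes with none shared. How far the overlap lowered the RIGI counts was not tested. The libraries labelled SM4 were all above those labelled SM2 and overlapped those labelled NC. No comparison was called, with log2 fold changes of 0.30 in SM4 against NC (95% interval -0.16 to 0.76, adjusted p 0.389), 0.40 in SM4 against SM2 (-0.07 to 0.86, adjusted p 0.281) and -0.10 in SM2 against NC (-0.57 to 0.38, adjusted p 0.825). These intervals are the widest of the 10 genes and include changes as large as that of DHX58.

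EIF2AK2 (ENSG00000055332.19, chromosome 2, 37099210 to 37157522), the gene of PKR, was at 134.6, 125.1 and 127.2 CPM in the libraries labelled NC and at 127.3, 114.9 and 105.5 CPM in those labelled SM2. In those labelled SM4 it was at 160.9, 156.9 and 152.2 CPM. Again all 3 libraries labelled SM4 lay above the 6 others. The rise was 21.5% against NC (log2 fold change 0.28, SE 0.0557, adjusted p 0.000831) and 35.3% against SM2 (log2 fold change 0.44, SE 0.0559, adjusted p 1.38e-05), with both calls kept in all 17 alternatives. SM2 was lower than NC by 0.15 on the log2 scale, just short of the threshold (95% interval -0.27 to -0.04, adjusted p 0.0534). That difference was called without SM2 replicate 1 (-0.23, adjusted p 0.00284), without the filter on low counts (-0.15, adjusted p 0.0268) and with the replicate number as a block (-0.16, adjusted p 0.0143). Its canonical exons share 0.351% of their bases with GPATCH11 and 1.67% with a pseudogene, both on the other strand.

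ADAR (ENSG00000160710.18, chromosome 1, 154581695 to 154628013) was the most abundant of the 10, both in CPM and per transcript length. The gene makes a constitutive form and a longer, interferon-inducible form, which counts per gene add together. Its levels were 379.2, 363.5 and 354.9 CPM in the libraries labelled NC, 366.0, 363.6 and 324.1 CPM in those labelled SM2 and 425.1, 425.6 and 400.3 CPM in those labelled SM4. The libraries labelled SM4 were above all others, and those labelled NC and SM2 overlapped. SM4 was higher by 14.0% against NC (log2 fold change 0.19, SE 0.0482, adjusted p 0.00694) and by 18.7% against SM2 (log2 fold change 0.25, SE 0.0482, adjusted p 0.00128). Both calls were kept in all 17 alternatives, with adjusted p-values of at most 0.0469 and 0.0147. SM2 and NC differed by -0.06 (95% interval -0.16 to 0.04, adjusted p 0.438).

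These 4 genes had the same order of groups at the top, and SM4 was higher than both NC and SM2, with both differences called, in 2.59% of all genes tested.

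**Figure D2:**
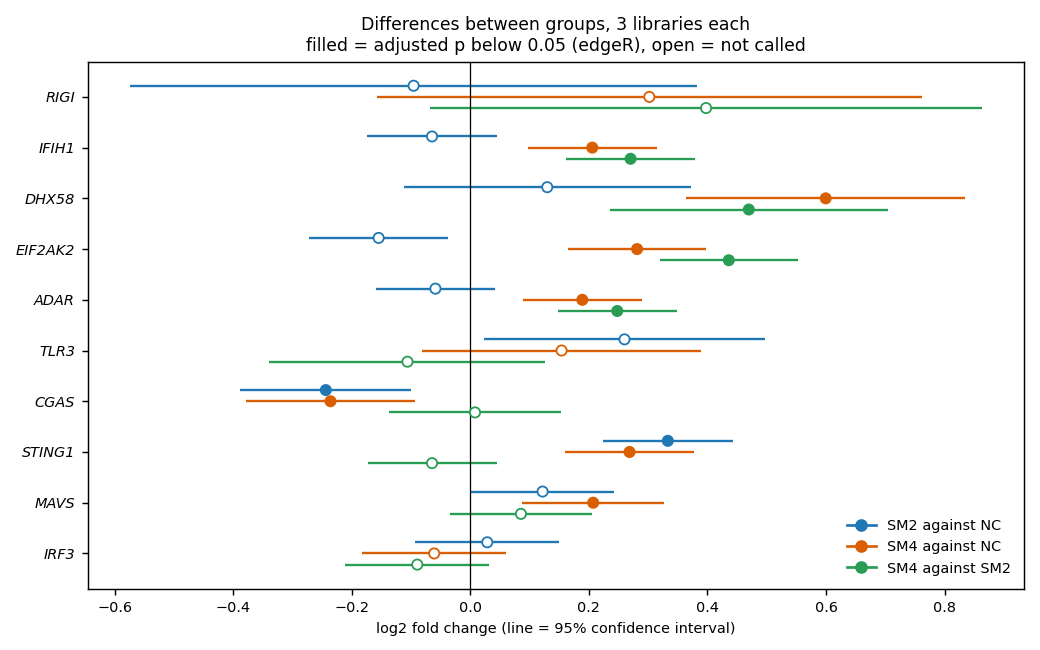
Log2 fold changes of the 10 genes in the 3 pairwise comparisons of the groups (points, filled where the adjusted p was below 0.05) with 95% confidence intervals (lines). DHX58, EIF2AK2, IFIH1 and ADAR are called in both comparisons that contain SM4, whereas STING1 and CGAS are called in both comparisons that contain NC, on opposite sides of 0.

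STING1 (ENSG00000184584.13, chromosome 5, 139475533 to 139482935), the endoplasmic reticulum adaptor that responds to the product of cGAS, was lowest in the libraries labelled NC, at 57.6, 56.7 and 62.6 CPM. It was at 73.5, 72.7 and 76.7 CPM in those labelled SM2 and at 67.1, 73.1 and 73.02 CPM in those labelled SM4. All 6 of these lay above every library labelled NC. The rise was 26% in SM2 (log2 fold change 0.33, SE 0.0527, adjusted p 8.47e-05) and 20.5% in SM4 (log2 fold change 0.27, SE 0.0525, adjusted p 0.000737), and both calls were kept in all 17 alternatives. SM4 and SM2 differed by -0.06 (95% interval -0.17 to 0.04, adjusted p 0.485).

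CGAS (ENSG00000164430.17, chromosome 6, 73413515 to 73452297), the DNA sensor upstream of STING1, moved the other way. It was at 36.1, 42.7 and 36.0 CPM in the libraries labelled NC, at 33.01, 30.1 and 33.8 CPM in those labelled SM2 and at 31.1, 32.4 and 34.04 CPM in those labelled SM4. The libraries labelled NC were all above the 6 others, by a narrow margin apart from NC replicate 2. CGAS fell by 15.5% in SM2 (log2 fold change -0.24, SE 0.0692, adjusted p 0.0138) and by 15.1% in SM4 (log2 fold change -0.24, SE 0.0686, adjusted p 0.017). Neither call survived the removal of NC replicate 2, where the differences were -0.16 (adjusted p 0.139) and -0.15 (adjusted p 0.167). The SM2 call was also lost without SM2 replicate 2 (-0.20, adjusted p 0.0778) and the SM4 call without SM4 replicate 1 (-0.20, adjusted p 0.0985) or SM4 replicate 2 (-0.23, adjusted p 0.0545). Between SM4 and SM2 the difference was 0.01 on the log2 scale (95% interval -0.14 to 0.15, adjusted p 0.963).

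TLR3 (ENSG00000164342.13, chromosome 4, 186068911 to 186088073), the endosomal receptor, was expressed at a low level. It was at 6.78, 5.28 and 5.96 CPM in the libraries labelled NC, at 7.66, 6.59 and 7.26 CPM in those labelled SM2 and at 7.22, 6.69 and 6.05 CPM in those labelled SM4. The groups overlapped, and no comparison was called. The difference was 0.26 in SM2 against NC (95% interval 0.02 to 0.50, unadjusted p from edgeR 0.0329, adjusted p 0.112), 0.15 in SM4 against NC (-0.08 to 0.39, adjusted p 0.391) and -0.11 in SM4 against SM2 (-0.34 to 0.13, adjusted p 0.612).

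MAVS (ENSG00000088888.18, chromosome 20, 3846799 to 3876123), the adaptor on which RIG-I and MDA5 converge, was at 181.3, 177.2 and 177.0 CPM in the libraries labelled NC. In those labelled SM2 it was at 202.0, 210.7 and 170.1 CPM, and in those labelled SM4 at 210.4, 201.3 and 206.5 CPM. The libraries labelled SM4 were all above those labelled NC (15.4% higher, log2 fold change 0.21, SE 0.0577, adjusted p 0.0127), and the call was lost without NC replicate 2 (0.20, adjusted p 0.0561) or SM4 replicate 1 (0.20, adjusted p 0.0621). SM2 was split, with replicate 3 below every library labelled NC and the other two above, and its difference from NC was not called (0.12, adjusted p 0.147). Without SM2 replicate 3, the library that stood apart, SM2 exceeded NC by 0.21 (adjusted p 0.000115). The same library held the lowest value of all 9 for IFIH1, EIF2AK2, ADAR and MAVS and the highest for STING1 and IRF3. Without it, the calls against SM2 for DHX58, EIF2AK2, IFIH1 and ADAR were kept.

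IRF3 (ENSG00000126456.16, chromosome 19, 49659569 to 49665875), the transcription factor at the end of these routes, is mainly controlled by phosphorylation. Its transcript was at 66.3, 65.4 and 69.4 CPM in the libraries labelled NC, at 65.7, 64.2 and 75.3 CPM in those labelled SM2 and at 61.2, 64.9 and 66.9 CPM in those labelled SM4. The groups overlapped in every comparison, and the largest difference was -0.09 in SM4 against SM2 (95% interval -0.21 to 0.03, adjusted p 0.364). IRF3 shares 14.2% of its canonical exon bases with BCL2L12 on the other strand, which was higher in SM2 against NC by 0.34 (adjusted p 7.06e-05), and the sources used here do not say if reads were assigned by strand.

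Levels of different genes were compared as CPM per kilobase of the canonical transcript. In the libraries labelled NC, ADAR stood at 55.4 ± 1.87 and was followed by IRF3 at 42.04 ± 1.33, STING1 at 27.2 ± 1.47, IFIH1 at 15.4 ± 0.491 and MAVS at 15.2 ± 0.205 (SD, n = 3), the last pair within the spread of each other. EIF2AK2 at 12.9 ± 0.501 and CGAS at 11.9 ± 1.2 came next and were also within their spread. DHX58 at 2.84 ± 0.0884, TLR3 at 0.998 ± 0.125 and RIGI at 0.22 ± 0.017 were the lowest. The RIGI value carries the limit of the shared exons described above. ADAR kept first place and DHX58, TLR3 and RIGI the last places in all 3 groups, also with the length of all annotated exons in place of the canonical transcript. The ranks of IRF3, STING1, IFIH1, MAVS and EIF2AK2 shifted with that choice.

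**Figure D3:**
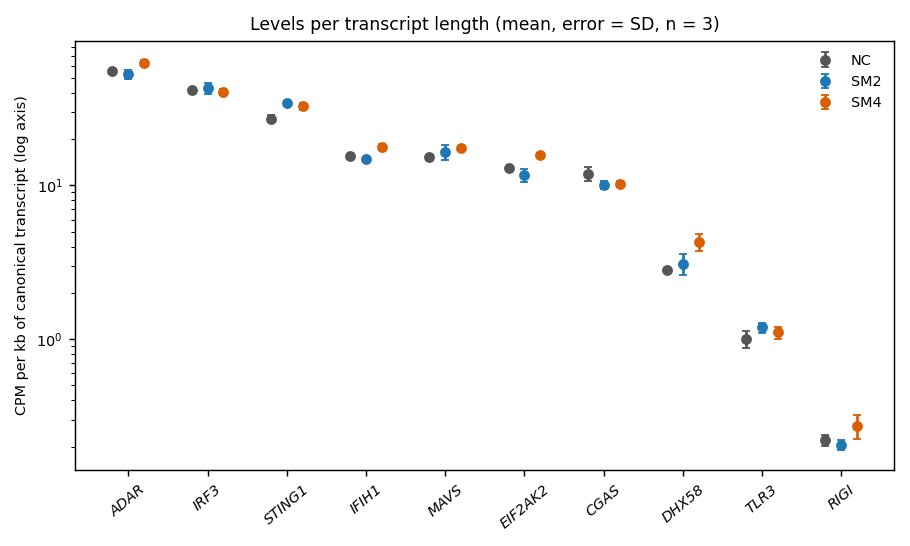
CPM per kilobase of canonical transcript (log axis) for the 10 genes, ordered by the NC mean, with the mean and SD of 3 libraries for NC, SM2 and SM4. ADAR is highest at 55.4 in the libraries labelled NC, DHX58, TLR3 and RIGI lie below 5 in every group, and the groups differ far less than the genes do.

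Around these 10, another 107 genes of the pathway were placed in 8 lists by role, and 95 of them passed the filter. In SM4 against NC 27 rose and 9 fell (11% and 10.2% of all genes), with a median log2 fold change of 0.04. In SM2 against NC 17 rose and 14 fell (12% and 10.3% of all genes), with a median of -0.02. In SM4 against SM2 24 were higher and 6 lower (6.04% and 6.76% of all genes), with a median of 0.08. The counts of the single lists below are to be read against these shares.

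Among the 16 relay kinases, adaptors and IRFs, 3 rose and 1 fell in SM4 against NC, and 4 rose and 2 fell in SM2 against NC, where 21.2% and 22.3% of all genes were called. IRF7, the interferon-inducible partner of IRF3, was at 38.9, 38.3 and 38.5 CPM in the libraries labelled NC, 37.7, 40.7 and 41.1 CPM in those labelled SM2 and 56.6, 61.8 and 57.9 CPM in those labelled SM4. It was higher in SM4 by 0.61 against NC (adjusted p 3.64e-08) and by 0.56 against SM2 (adjusted p 3.04e-07). IKBKE, which encodes the kinase IKK-epsilon that phosphorylates IRF3 and IRF7, went down in SM4 by 0.41 against NC (adjusted p 4.24e-06). TBKBP1, which encodes a scaffold for TBK1, rose from 0.862 ± 0.127 CPM in NC to 2.00 ± 0.325 CPM in SM2 and 2.86 ± 0.137 CPM in SM4 (SD, n = 3), a log2 fold change against NC of 1.22 for SM2 (adjusted p 0.000108) and of 1.74 for SM4 (adjusted p 8.21e-07). TBK1 itself, the main IRF3 kinase, was lower in SM2 than in NC by 0.21 (adjusted p 0.0422). Its libraries overlapped there, at 37.03, 35.8 and 32.8 CPM in NC and 30.7, 33.7 and 26.8 CPM in SM2. The lowest was SM2 replicate 3, the library that stood apart, and how far this call depends on single libraries is not given here. TBK1 was higher in SM4 than in SM2 by 0.29 (adjusted p 0.0101), a call lost without SM4 replicate 2 (0.26).

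Of the 18 cofactors and brakes, 3 rose and 2 fell in SM4 against NC (21.2% of all genes called), and 2 rose and 2 fell in SM2 against NC (22.3%), which is near those shares. DDX60, a helicase linked to RIG-I signalling, rose by 97.5% in SM4, from 10.1, 9.62 and 10.2 CPM in NC to 20.1, 21.1 and 17.8 CPM (adjusted p 4.17e-08). TRIM56, a ubiquitin ligase of the STING and TLR3 routes, rose there by 0.30 (adjusted p 2.4e-05). USP18, a brake on interferon receptor signalling, went the other way, with a log2 fold change of -0.55 (adjusted p 0.0223) between 2.71, 2.94 and 4.01 CPM in NC and 2.09, 2.47 and 2.07 CPM in SM4. That call was lost without NC replicate 3 (-0.36), SM4 replicate 1 (-0.51) or SM4 replicate 3 (-0.51).

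Of the 12 disposal enzymes tested, SAMHD1, which breaks down deoxynucleotides, had the largest called change, with an increase in SM4 of 0.44 against NC (adjusted p 8.76e-06) and of 0.42 against SM2 (adjusted p 3.22e-05). PNPT1, which degrades mitochondrial RNA, fell by 0.28 in SM2 against NC (adjusted p 0.00011). Its level was 127.6 ± 5.25 CPM in NC, 104.7 ± 3.31 CPM in SM2 and 108.0 ± 2.91 CPM in SM4 (SD, n = 3), so it was also lower in SM4. The list as a whole had 3 genes higher and 1 lower in SM4 against NC, and 1 higher and 2 lower in SM2 against NC. In SM2, DNASE2 (0.20, adjusted p 0.0312) and RNASEH2B (-0.20, adjusted p 0.0432) lost their calls when any NC library was left out, DNASE2 also without SM2 replicate 3 and RNASEH2B also without SM2 replicate 1, SM2 replicate 2, SM4 replicate 1 or SM4 replicate 3. In SM4, ADARB1 (0.27, adjusted p 0.0431) lost its call without NC replicate 2, NC replicate 3 or any SM4 library. TREX1, the main cytosolic DNA exonuclease, had 0 counts in every library, and 100% of its canonical exon bases lie within exons of ATRIP on the same strand. Its level is therefore not readable here.

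Of 16 other nucleic acid sensors listed, AIM2, TLR8 and TLR9 did not pass the filter. TLR9 had 0 counts in every library, and 99.7% of its canonical exon bases are shared with another gene on the same strand. The level of TLR9 is therefore not readable here. Of the 13 tested, 1 rose and 2 fell in SM4 against NC while 1 rose and 5 fell in SM2 against NC. The one that rose in SM2 was NLRP1 (0.67, adjusted p 0.0409), whose call was lost in 10 of the 17 alternatives, among them DESeq2 and leaving out any NC library. DDX21, a nucleolar helicase, fell in SM2 (-0.36, adjusted p 1.31e-05) and in SM4 (-0.34, adjusted p 2.88e-05) against NC. UNC93B1, the chaperone that carries TLR3 to endosomes, rose in SM4, where it exceeded NC by 0.21 (adjusted p 0.000489) and SM2 by 0.22 (adjusted p 0.0006).

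EIF2AK2 belongs to a family of kinases that phosphorylate the same factor. EIF2AK1 (HRI) was higher in SM2 against NC by 0.17 (adjusted p 0.00945), and its difference of 0.11 in SM4 against NC was not called (adjusted p 0.0998). EIF2AK4 (GCN2) fell by 0.34 in SM2 (adjusted p 0.000109) and by 0.23 in SM4 (adjusted p 0.00311) against NC. EIF2AK3 (PERK) rose in SM2 against NC by 0.24 (adjusted p 0.00566) and was lower in SM4 than in SM2 by 0.29 (adjusted p 0.002). EIF2S1, the substrate of all of them, fell by 0.28 in SM2 against NC (adjusted p 3.88e-05). Of the 7 genes of this list, none rose in SM4 against NC in the edgeR test (1 at an unadjusted p below 0.05, 0 in DESeq2) and 3 fell, while 2 rose and 3 fell in SM2 against NC. Of the 3 that fell in SM4, EIF2S1 (-0.12, adjusted p 0.0482) lost its call in 11 of the 17 alternatives and PPP1R15A (-0.17, adjusted p 0.0469) in 10. Both were lost without NC replicate 1, NC replicate 2 or any SM4 library.

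**Figure D4:**
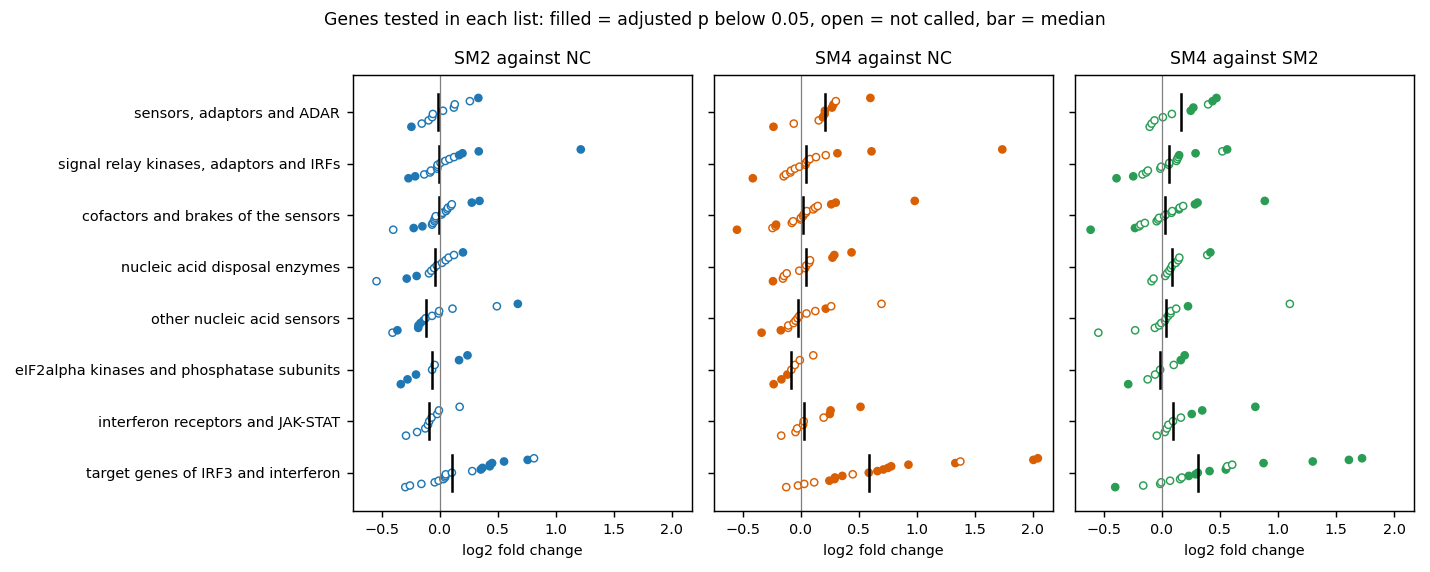
Log2 fold change of every gene tested in the 10-gene set and in 7 of the lists (the interferon genes are not drawn), with a panel for each pairwise comparison (filled points have an adjusted p below 0.05, bars are medians). The target genes extend furthest to the right in both comparisons that contain SM4, with a median of 0.59 against NC, while the relay, cofactor and disposal lists stay centred near 0.

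Transcripts of the interferons themselves were at or near 0. IFNB1, IFNA1, IFNL1, IFNL2 and IFNL3 had at most 5 counts in any library, IFNA2, IFNK and IFNG had 0 in all, and none of these 8 passed the filter. IFNA1 shares 63.4% of its canonical exon bases with a gene on the other strand that had 172 to 314 counts. The sources used here do not say if reads were assigned by strand, so the IFNA1 counts carry that limit. A count of 0 allows a level of up to 0.0475 to 0.0684 CPM, depending on the library and for counting error only. IFNE, an interferon of reproductive tract epithelium, was the exception, with 8 to 12 counts in the libraries labelled NC, 6 to 22 in those labelled SM2 and 24 to 39 in those labelled SM4. Its level in SM4 exceeded that in NC by 1.31 on the log2 scale (adjusted p 0.047), and the call was lost when any NC or SM4 library was left out (1.08 to 1.56), with the replicate block and in DESeq2.

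Of the 9 genes for interferon receptors and JAK-STAT signalling, 3 rose and none fell in both comparisons of SM4, and none was called in SM2 against NC in the edgeR test (1 at an unadjusted p below 0.05, 0 in DESeq2). STAT2, a transcription factor of the type I interferon response, was at 41.1, 39.2 and 40.95 CPM in NC, 38.2, 40.8 and 41.6 CPM in SM2 and 48.6, 44.4 and 51.3 CPM in SM4. It was higher in SM4 by 0.25 against NC (adjusted p 0.0036) and by 0.26 against SM2 (adjusted p 0.00511). IRF9, which binds DNA together with STAT2, rose by 0.51 against NC (adjusted p 0.0419) and by 0.80 against SM2 (adjusted p 0.00427). The first of these was lost when any NC library or SM4 replicate 1 or 3 was left out (0.39 to 0.57), and 93.05% of its canonical exon bases are shared with another gene on the same strand.

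The 19 target genes of IRF3 and interferon had the largest list median in both comparisons of SM4 among the pathway lists with more than 1 gene tested. In SM4 against NC 13 rose and none fell by edgeR (0 at an unadjusted p below 0.05, 0 in DESeq2), with a median log2 fold change of 0.59. In SM2 against NC 7 rose and none fell by edgeR (1 at an unadjusted p below 0.05, 0 in DESeq2), with a median of 0.10, and in SM4 against SM2 10 were higher and 1, IFIT2, was lower. IFI6 rose from 10.7, 11.3 and 13.0 CPM in NC to 13.8, 15.02 and 18.4 CPM in SM2 and 45.8, 53.5 and 45.1 CPM in SM4. The log2 fold change against NC was 0.43 for SM2 (adjusted p 0.00331) and 2.04 for SM4 (adjusted p 3.81e-12). MX1 was at 26.4, 25.6 and 27.5 CPM in NC, 24.6, 27.1 and 29.5 CPM in SM2 and 66.4, 70.6 and 63.2 CPM in SM4, a difference of 1.33 in SM4 against NC (adjusted p 6.07e-12) and of 0.03 in SM2 against NC (adjusted p 0.797). IFI44L rose by 2.004 in SM4 against NC (adjusted p 3.69e-08). The study reports type I interferon signalling as enriched among genes that were lower after METTL3 depletion. With SM4 taken as a knockdown, as labelled, the direction here is the reverse of that. It would be the same direction were the labels NC and SM4 exchanged. IFIT2, chosen after its values were seen as the only target called lower in SM4 than in SM2, was at 14.1, 14.7 and 15.4 CPM in NC, 21.2, 18.9 and 19.5 CPM in SM2 and 16.3, 15.6 and 13.1 CPM in SM4. It rose in SM2 (0.43, adjusted p 0.000579) and differed by 0.03 in SM4 (adjusted p 0.86). Of the 15 target genes with a promoter window, 13 held GAAANNGAAA, as did 4.38% of all 27305 genes with a window. The targets were listed from general knowledge of such genes, so this count is not an independent result.

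**Figure D5:**
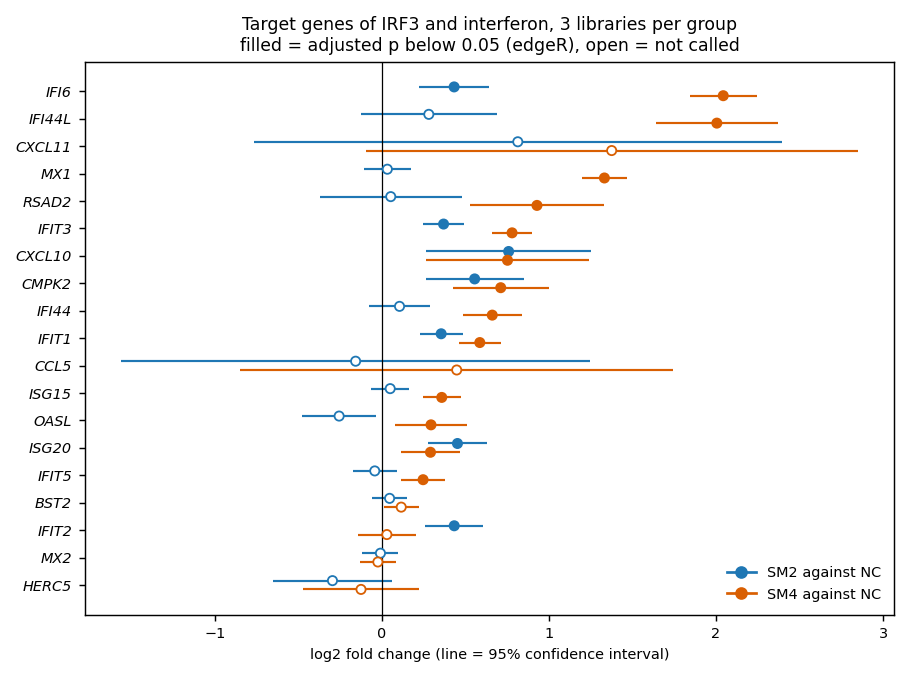
Log2 fold changes with 95% confidence intervals of the 19 target genes in SM2 against NC and SM4 against NC, ordered by SM4 (filled points have an adjusted p below 0.05). IFI6 and IFI44L reach about 2.04 and 2.00 in SM4, and IFIT2 is called in SM2 and not in SM4.

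The genes whose pattern over the 9 libraries was most like that of 3 of the sensors were looked up among 13784 other protein-coding genes, by the root mean square difference of log2 CPM centred on each gene's own mean. FAM111B (0.0615) was among the 2 genes closest to EIF2AK2. That of DHX58 was closest to SCML2 (0.109) and ABCB11 (0.11), and that of RIGI to AATK (0.0951) and STAT2 (0.0961).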

How the data were processed

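Messenger RNA was sequenced from 9 libraries, and the authors deposited raw counts per gene without normalization. Per the methods of the study and the submitters' processing notes, reads were aligned to hg38 with HISAT2 and counted with featureCounts of Subread (fastp and FastQC are named for read checks). Versions, the annotation and the strand setting are not given in the sources used here. The labels name a stranded kit with paired-end reads and the methods another kit with single-end reads, so the layout is uncertain. Of 60649 identifiers, 60463 matched GENCODE v44 (GRCh38) without version. The 37 mitochondrial genes had 0 counts.

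In R 4.3.3, filterByExpr of edgeR 4.0.16 kept 19674 genes, and counts were fitted with TMM (factors 0.989 to 1.01), group alone and all 9 libraries in one model. SE and intervals come from the quasi-likelihood F statistic. The biological coefficient of variation was 0.0587. Tests were tried on simulated counts first. Deviations of same-numbered libraries of different groups were at most weakly correlated (r -0.053 to 0.0453). For differently numbered libraries r was -0.0651 to 0.0923. This check cannot exclude pairing, which the main model left out. Groups came from library titles. Counts have no molecular identifiers, so floors and intervals from counts cover counting error only. Bulk counts cannot tell fewer expressing cells from less RNA per cell.

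By rule, the text names the 10 genes, METTL3, every interferon gene, genes overlapping the 10 in exons, pathway genes among the 3 called genes with the largest change per list and comparison, and the 2 closest patterns of 3 genes. IFIT2, EIF2AK1, the cell type markers, and genes at or near 0 (TREX1, AIM2, TLR8, TLR9), were named after their values were seen. The genes and the lists, which were written from general knowledge, were chosen with earlier results of these data known. Alternatives were DESeq2 1.42.0, other scalings and filters, a threshold of 0.01, the 6 libraries compared, a replicate block and leaving out each library. Some items are not reported here.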

Additional observations from a re-analysis of the deposited data

Results flagged for a closer look

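With the groups as labelled, the effects of SM2 and SM4 against NC differed for 4 of the 10 genes. The test was the direct one of SM4 against SM2 (edgeR's quasi-likelihood test). The difference was 0.47 on the log2 scale for DHX58 (adjusted p 0.00713), 0.44 for EIF2AK2 (adjusted p 1.38e-05), 0.27 for IFIH1 (adjusted p 0.00118) and 0.25 for ADAR (adjusted p 0.00128), each higher in 3 of 3 libraries labelled SM4 than in any labelled SM2. Were the labels NC and SM4 exchanged, SM4 against SM2 would compare the control with a knockdown. The fold changes in the study's supplement, described above, match that reading and not a difference between knockdowns. No test for outlying values of single genes was made in groups of 3 libraries.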

How the results depend on the processing

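Of the values of the 10 genes under 17 alternatives each, 490 kept their direction and their side of the threshold, 12 lost a call, 4 gained one and 4 changed sign. The number of the 10 genes called ranged from 1 to 3 in SM2 against NC, from 4 to 7 in SM4 against NC and stayed at 4 in SM4 against SM2 when 1 library was left out, with the low ends reached without NC replicate 2 (1 and 4) or SM2 replicate 2 (1). At a threshold of 0.01 it was 1 in SM2 against NC. The number of other pathway genes called ranged from 19 (without NC replicate 2) to 30 in SM2 against NC, 28 to 41 in SM4 against NC and 22 to 32 in SM4 against SM2 when 1 library was left out, and was 20 in SM2 against NC at 0.01. With 1 library left out, the sign turned in SM4 against SM2 for CGAS (range -0.037 to 0.042, negative without SM2 replicate 2 or SM4 replicate 3) and MAVS (-0.0028 to 0.15, negative without SM2 replicate 3), and in SM2 against NC for IRF3 (-0.043 to 0.069, negative without SM2 replicate 3), none of them called. With the replicate block 3, 7 and 4 of the 10 genes were called, and EIF2AK2 in SM2 against NC was the gene gained. The cause was not tested. Of 57 calls of single pathway genes, 41 were kept in all 17 alternatives. With other scalings the median of all genes stayed between -0.0049 and 0.017. RIGI, with 40 to 77 counts, had the widest intervals of the 10 genes.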
